A study of Mus musculus with 12 samples.

Results

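The 10 genes described here encode the proteins that bring long-chain fatty acids into mitochondria and begin to oxidize them: Cpt1a, Cpt1b, Slc25a20 and Cpt2 of the carnitine shuttle, the acyl-CoA dehydrogenases Acadvl, Acadl and Acadm, the trifunctional protein subunits Hadha and Hadhb, and Etfdh of electron transfer. They were taken by gene symbol from a table of reads per gene that lists 54134 genes, each symbol had 1 gene ID, and the rule used no measured value. RNA-seq was performed on inguinal white adipose tissue (iWAT) of 12 male C57BL/6J mice, 6 given AAV-GFP and 6 given AAV-Notum. Both vectors were adeno-associated viruses of serotype 8 that drive their cargo in liver from a human thyroxine binding globulin promoter, so Notum was overexpressed in another organ than the one sequenced, and no mouse without virus was included. All mice were injected at 8 weeks of age, ate chow for 4 weeks and were fasted for 4 h before the fat was taken. The comparison asks whether overexpression in the liver of NOTUM, a secreted enzyme that inactivates Wnt proteins, was accompanied by a different level of these genes in subcutaneous fat.

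Long-chain fatty acids cannot cross the inner mitochondrial membrane as CoA esters. They are first joined to carnitine by carnitine palmitoyltransferase 1, the regulated step of the pathway, then exchanged across the inner membrane and returned to CoA, and each round of beta-oxidation then removes an acetyl-CoA and passes electrons to the respiratory chain. White adipocytes mainly store and release fatty acids, whereas brown and beige adipocytes burn them to make heat, and many genes of the pathway are known targets of the nuclear receptors PPARα, PPARγ and ERRα.

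Between 14711113 and 21618860 reads were counted on genes per mouse, and RNA integrity numbers were 5.7 to 7.6 for the AAV-GFP group and 6.9 to 7.4 for the AAV-Notum group. All 14 markers of mature adipocytes were detected in every mouse, with Car3 (carbonic anhydrase 3) the highest at 20572 ± 5539 CPM in AAV-GFP against 18788 ± 6220 CPM in AAV-Notum mice (SD, n = 6 each). CPM are counts scaled to a common library size, with the sizes normalized by edgeR's TMM method. The libraries also held transcripts of other cells in amounts that differed between mice: 20 skeletal muscle markers summed to 58.8 to 1268 CPM in 11 mice and to 6081 CPM in mouse AAV-Notum-2042, and 18 lymphoid markers summed to 24.8 CPM in mouse AAV-GFP-2014 and to 3832 CPM in mouse AAV-Notum-2032. All 18 lymphoid markers were higher in AAV-Notum mice (median log2 fold change 0.98, median sums of 1249 CPM in AAV-GFP and 2604 CPM in AAV-Notum mice), and 14 of 15 hepatocyte markers were lower (median -2.80), with 0 of either list at an edgeR adjusted p under 0.05. The mean log2 CPM of the hepatocyte markers ran from 0.38 to 8.18 in AAV-GFP, with mouse AAV-GFP-2013 the highest, and from 0.43 to 5.77 in AAV-Notum mice. RNA of mouse AAV-GFP-2012 was isolated on another date than that of the other 11 mice.

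Hadha and Hadhb, the α and β subunits of one protein complex, lie head to head on chromosome 5 of GRCm38. Hadha (ENSMUSG00000025745, chr5:30118304-30155162) is on the minus strand and Hadhb (ENSMUSG00000059447, chr5:30155248-30184593) on the plus strand. The 85 bases between the annotated genes, chr5:30155163-30155247, are shown 5′ to 3′ on the plus strand from RefSeq sequence of GRCm38.p6, because the GENCODE starts of both genes border it. Capitals mark the letters GGGCGG, the core of a GC box.
Hadha-Hadhb: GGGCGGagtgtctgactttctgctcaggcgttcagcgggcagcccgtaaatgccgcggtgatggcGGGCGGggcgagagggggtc
The stretch was 69.4% G and C, held 2 GC boxes and held no match to CCAAT on either strand. Its first GC box lies 188 bases before the RefSeq start of Hadha and 90 before that of Hadhb, so the RefSeq starts do not border the stretch.

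Promoter sequence, 250 bases before to 50 after the start that RefSeq gives, was matched in RefSeq for 9 of the 10 genes, and none was matched for Cpt1b. PPARs bind, as a pair with a retinoid X receptor, to the letters AGGTCANAGGTCA. On either strand, this motif was present in 12 of 27025 mouse promoters of the same length (0.0444%) and in 0 of the 9. A full match is so rare among all promoters that 0 of 9 cannot set these genes apart from others. A single AGGTCA was present in 16% of all promoters and in 3 of the 9, those of Acadm, Acadvl and Cpt1a. These matches are shown with their flanking bases, 5′ to 3′ on the strand of the gene, with AGGTCA or its reverse complement TGACCT in capitals. They start 249 bases before the RefSeq start of Acadm (chr3:153944877-153944893, minus strand), 87 before that of Acadvl (chr11:70015500-70015525, minus strand) and 94 before that of Cpt1a (chr19:3323197-3323222, plus strand). These starts are not those of the GENCODE genes given with the levels below, and the RefSeq start of Cpt1a and the match before it lie inside the GENCODE gene.
Acadm: gTGACCTtcgggctccg
Acadvl: ggatcaccctAGGTCAggtagaatac
Cpt1a: gtttccttacTGACCTcctccccgca
The GC box letters GGGCGG were present in 7 of the 9 promoters and in 35.9% of all promoters, and CCAAT in 2 of the 9 and in 37.9% of all. Every motif was searched on both strands. A match describes letters only, since binding was not measured.

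How much of each gene can be read unambiguously differed among the 10 genes. Cpt1b (ENSMUSG00000078937, chr15:89416405-89425863, minus strand) shares 2744 of its 3372 exon bases (81.4%) with Gm44502, a longer gene annotated on the same strand that had 0 reads in every mouse. Of the stretches of 50 bases, the read length, along the principal transcript of Cpt1b, 2647 of 2846 (93.0%) also occur in Gm44502. Hadhb shares 1247 of 1999 such stretches (62.4%) with the processed pseudogenes Gm13910, which had 37 to 100 reads per mouse, and Gm9108, which had 0 to 4. Acadvl (ENSMUSG00000018574, chr11:70010183-70015411, minus strand) overlaps Dvl2 on the opposite strand over 1151 of its 2686 exon bases (42.9%), and Dvl2 had 313 to 472 reads. For the other genes the share of 50-base stretches found elsewhere was 4.1% or less, and it was 0% for Cpt1a, Slc25a20, Cpt2, Acadl and Etfdh. By annotation, Etfdh overlaps 4930579G24Rik, which had 53 to 86 reads, on the opposite strand over 278 of its 7505 exon bases (3.7%). How the counting treated reads that fit several genes, and whether it used strand, is not given in the sources used here. The second table of the authors, which rests on another count of the reads, held 0.388 to 0.424 times as many reads for Acadvl, the same reads for Cpt1b, and 1.001 to 1.024 times as many for the others. The levels of Cpt1b, Hadhb and Acadvl are therefore less certain than those of the other genes.

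Per length, Acadl and Acadm were among the most abundant of the 10 genes and Cpt1b was the least, while the place of Acadvl depended on the count table. In AAV-GFP mice, Acadl had 203 ± 30.7 CPM per kb of exon (SD, n = 6), followed by Acadvl at 120 ± 16.2 and Acadm at 115 ± 23.97, which lay within each other's spread. From the reads behind the second table, an alternative chosen after the levels were seen, Acadvl had 49.8 ± 8.05 CPM per kb of exon and came after Cpt2 at 66.3 ± 10.5. By the raw counts, Cpt2 had 65.4 ± 9.65 and Hadha 43.5 ± 6.12 CPM per kb. Etfdh at 17.3 ± 2.47 and Slc25a20 at 16.6 ± 1.87 CPM per kb did not differ beyond their spread, and the ranges of mean ± SD of Cpt1a at 10.2 ± 2.27 and Hadhb at 6.98 ± 0.990 CPM per kb also met. Cpt1b, the form of carnitine palmitoyltransferase 1 of muscle and brown fat, had 0.122 ± 0.0433 CPM per kb in AAV-GFP and 0.177 ± 0.0483 in AAV-Notum mice, so that Cpt1a was the main form counted in this tissue. Divided by the length of the principal transcript, a length chosen after the levels were seen, Acadm led with 221 ± 45.8 CPM per kb ahead of Acadl at 213 ± 32.1, within each other's spread. Hadha, at 94.4 ± 13.3 CPM per kb of principal transcript, then passed Cpt2 at 65.9 ± 9.73, and Hadhb at 22.5 ± 3.19 passed Cpt1a at 17.98 ± 4.02. Per kb of principal transcript, Acadvl had 149 ± 20.02 CPM by the raw counts and 61.6 ± 9.97 by the reads behind the second table.

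No difference between AAV-Notum and AAV-GFP mice passed the test for any of the 9 genes that passed the filter on low counts, and Cpt1b, with 2 to 14 reads per mouse, did not pass the filter. With p-values from edgeR's quasi-likelihood test adjusted over the 15585 genes tested, 0 of the 9 passed 0.05, against 0.0513% of all genes, which were 8 genes, all lower in AAV-Notum mice. At an unadjusted p under 0.05 the count was also 0 of 9, against 14.2% of all genes. By DESeq2 the counts were 0 adjusted and 0 unadjusted as well, but the shares of all genes given here are those of edgeR. DESeq2 passed more of all genes at the adjusted threshold, as counted in the closing section. The log2 fold change (AAV-Notum over AAV-GFP) was above 0 for 7 of the 9 genes, against 51.2% of all genes. Most of these genes varied together between mice, so their signs are not independent. Without mouse AAV-Notum-2042, Cpt2, Acadl and Etfdh fell below 0. With all mice, the median log2 fold change of the 9 genes was 0.08, against 0.01 over all genes tested, and the values ran from -0.04 for Cpt1a to 0.21 for Hadha. The groups overlapped for all 10 genes. In bulk tissue, fewer cells of a type cannot be told apart from less RNA per cell.

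Cpt1a (ENSMUSG00000024900, chr19:3322334-3385733, plus strand), the liver form of carnitine palmitoyltransferase 1 that joins fatty acids to carnitine, had a lowest, median and highest level of 62.8, 70.2 and 104 CPM in AAV-GFP mice and of 45.1, 77.6 and 92.6 CPM in AAV-Notum mice. Mouse AAV-Notum-2042 was the lowest of all 12, mouse AAV-GFP-2013 the highest, and the other mice overlapped. The log2 fold change was -0.04 (standard error 0.18, 95% interval from -0.43 to 0.34, edgeR adjusted p = 0.905). The exact permutation test, two-sided and run on log2 CPM, gave p = 0.807.

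Cpt1b had 0.119, 0.465 and 0.504 CPM (lowest, median, highest) in AAV-GFP mice and 0.398, 0.631 and 0.800 CPM in AAV-Notum mice. The groups overlapped, with 4 AAV-Notum mice above every AAV-GFP mouse. The lowest value was that of mouse AAV-GFP-2012, the mouse with the separate RNA isolation date, with 2 reads. The difference of mean log2 CPM was 0.48 (exact permutation p = 0.0649), and 5 of 6 AAV-Notum mice exceeded the mean of AAV-GFP. Without mouse AAV-GFP-2012 it was 0.26 (exact permutation p = 0.136). Leaving out the other mice in turn gave p-values from 0.0346 without mouse AAV-Notum-2033 and 0.0476 without mouse AAV-Notum-2032 to 0.165 without mouse AAV-Notum-2041. At this depth no difference in Cpt1b was detectable beyond the spread of the mice.

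Slc25a20 (ENSMUSG00000032602, chr9:108662088-108684641, plus strand), the carrier that exchanges acylcarnitine for carnitine across the inner membrane, had 66.3, 83.1 and 91.0 CPM (lowest, median, highest) in AAV-GFP and 58.3, 82.4 and 126 CPM in AAV-Notum mice. The medians were close, while AAV-Notum mice reached both lower and higher than AAV-GFP mice. The log2 fold change was 0.14 (standard error 0.17, 95% interval from -0.23 to 0.51, edgeR adjusted p = 0.655). Cpt2 (ENSMUSG00000028607, chr4:107903981-107923610, minus strand), which returns the acyl group to CoA inside the mitochondrion, had 135, 149.98 and 191 CPM in AAV-GFP and 102, 164 and 232 CPM in AAV-Notum mice. Both its lowest and its highest mouse were again AAV-Notum mice, AAV-Notum-2032 and AAV-Notum-2042. The log2 fold change of Cpt2 was 0.08 (standard error 0.19, 95% interval from -0.33 to 0.49, edgeR adjusted p = 0.824).

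Acadvl, the dehydrogenase for very long chains bound to the inner membrane, had 277, 315 and 391 CPM (lowest, median, highest) in AAV-GFP and 235, 348 and 490.3 CPM in AAV-Notum mice. Mouse AAV-Notum-2032 was the lowest and mouse AAV-Notum-2042 the highest of all 12. Its log2 fold change was 0.17 (standard error 0.17, 95% interval from -0.20 to 0.54, edgeR adjusted p = 0.591), and 0.15 from the reads behind the second table. Acadl (ENSMUSG00000026003, chr1:66830839-66863277, minus strand), the long-chain dehydrogenase, had 336, 388 and 489.96 CPM in AAV-GFP and 269, 356 and 660.1 CPM in AAV-Notum mice. In the AAV-Notum group 3 mice were below every AAV-GFP mouse and 2 were above every AAV-GFP mouse, and the log2 fold change was 0.07 (standard error 0.22, 95% interval from -0.41 to 0.55, edgeR adjusted p = 0.871). Acadm (ENSMUSG00000062908, chr3:153922357-153944632, minus strand), the medium-chain dehydrogenase, had 343, 465 and 586 CPM in AAV-GFP and 291, 387 and 623 CPM in AAV-Notum mice. The median was lower in AAV-Notum mice although their highest mouse was the highest of all, and the log2 fold change was -0.04 (standard error 0.21, 95% interval from -0.49 to 0.42, edgeR adjusted p = 0.935).

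Hadha, which carries the hydratase and long-chain hydroxyacyl-CoA dehydrogenase activities of the trifunctional protein, had 301, 367 and 449 CPM (lowest, median, highest) in AAV-GFP and 289, 421 and 597 CPM in AAV-Notum mice. It had the smallest edgeR p of the 9 genes, with a log2 fold change of 0.21 (standard error 0.17, 95% interval from -0.15 to 0.57, edgeR adjusted p = 0.511), and the groups overlapped. Hadhb, which carries the thiolase activity, had 37.3, 45.8 and 56.1 CPM in AAV-GFP and 36.2, 42.9 and 81.2 CPM in AAV-Notum mice. The AAV-Notum median was below that of AAV-GFP, and the mean was above it through mice AAV-Notum-2041 (70.9 CPM) and AAV-Notum-2042 (81.2 CPM). The log2 fold change was 0.18 (standard error 0.20, 95% interval from -0.26 to 0.63, edgeR adjusted p = 0.622) and 0.02 without mouse AAV-Notum-2042. Etfdh (ENSMUSG00000027809, chr3:79603788-79629500, minus strand), which passes the electrons of the dehydrogenases to ubiquinone, had 109, 126 and 163 CPM in AAV-GFP and 89.0, 117 and 183 CPM in AAV-Notum mice. Its groups overlapped, and the log2 fold change was 0.02 (standard error 0.17, 95% interval from -0.36 to 0.40, edgeR adjusted p = 0.957).

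**Figure D1:**
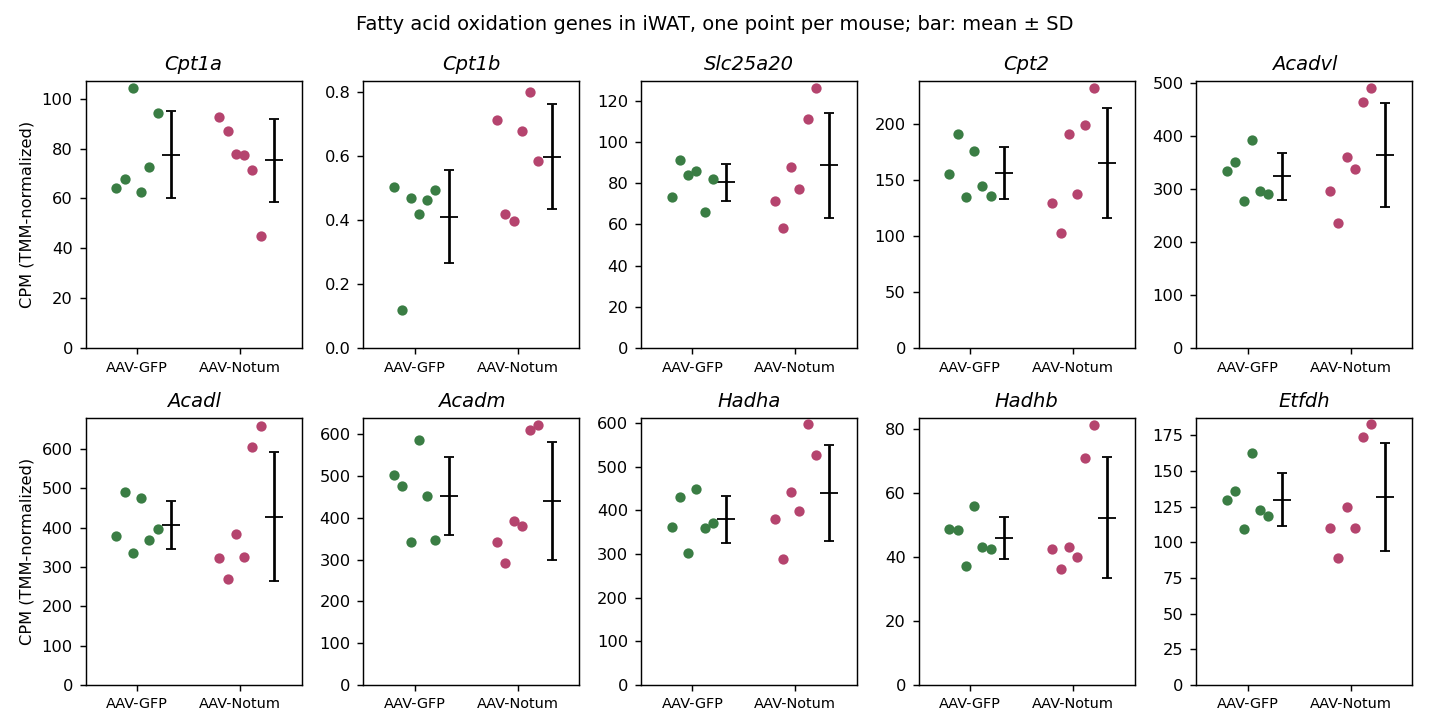
CPM of each of the 10 genes, one point per mouse, AAV-GFP on the left and AAV-Notum on the right of each panel, with the mean ± SD of 6 mice beside the points and axes that start at 0. In the 8 panels other than Cpt1a and Cpt1b, 2 AAV-Notum mice lie above every AAV-GFP mouse while the other AAV-Notum mice overlap with or lie below the AAV-GFP mice.

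**Figure D2:**
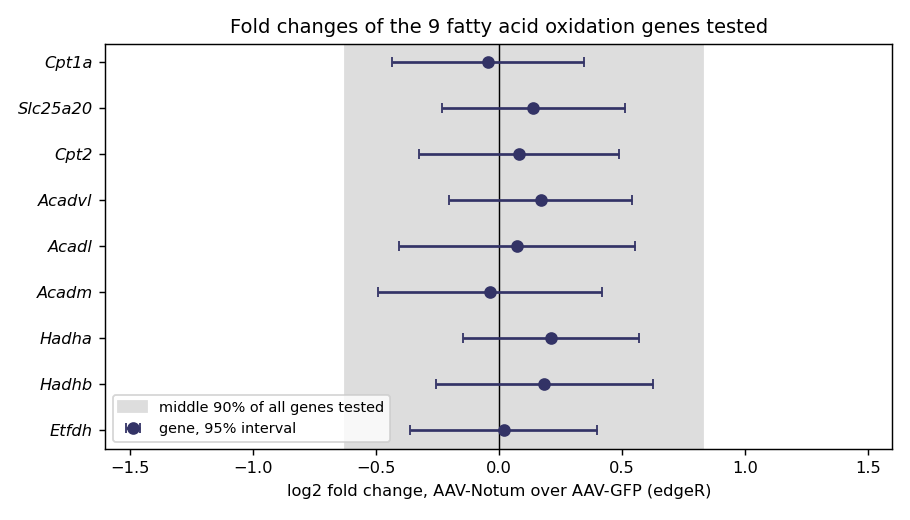
Log2 fold change (AAV-Notum over AAV-GFP) of the 9 genes tested, with 95% intervals from edgeR, over a grey band that holds the middle 90% of all genes tested, from -0.63 to 0.83. Every interval includes 0, and every estimate lies between -0.04 and 0.21.

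The intervals limit what these 12 mice can show. Their upper bounds ran from 0.34 for Cpt1a to 0.63 for Hadhb on the log2 scale, and their lower bounds from -0.49 for Acadm to -0.15 for Hadha. The single-gene exact permutation tests gave p-values from 0.312 for Hadha to 0.991 for Acadl among the 9 genes, where 0.00216 is the smallest p that 6 mice against 6 allow.

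The levels of 8 of the genes varied together between mice, and by TMM-normalized CPM more in the AAV-Notum group. For Slc25a20, Cpt2, Acadvl, Acadl, Acadm, Hadha, Hadhb and Etfdh, the coefficient of variation ranged over 11.3 to 20.8% for AAV-GFP and over 25.0 to 38.2% for AAV-Notum mice, a description that was not tested. The larger AAV-Notum spread depended on the scaling. With the library size set by the mature adipocyte markers, the SD was larger in AAV-GFP mice for these genes except Acadm. It was 31.0 CPM in AAV-GFP against 9.01 in AAV-Notum mice for Slc25a20, 105.6 against 69.1 for Hadha and 60.5 against 72.0 for Acadm. By TMM-normalized CPM, mouse AAV-Notum-2041 was among the 2 highest mice for 9 of the 10 genes and mouse AAV-Notum-2042 for 8, while mouse AAV-Notum-2032 was among the 2 lowest for 8. For each of the 8 genes, exactly 2 AAV-Notum mice lay above every AAV-GFP mouse, and they were AAV-Notum-2041 and AAV-Notum-2042. The first 3 digits of their numbers are the same and differ from those of the other 4 AAV-Notum mice, and what the numbers stand for is not given in the sources used here. Over the 12 mice, the 28 pairs of these 8 genes had Pearson correlations of log2 CPM from 0.708 to 0.965 with a median of 0.892, and from 0.739 to 0.978 after the mean of each group was removed. Cpt1a went the other way, with correlations from -0.843 to -0.568 with the 8 genes, and Cpt1b followed neither, with correlations from -0.133 to 0.196. These correlations describe 12 libraries in which all genes share the same depth and mixture of cells.

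The same mice stood apart in some cell type markers. Mouse AAV-Notum-2042 had the highest level of skeletal muscle markers, by their sum and by their mean log2 CPM, including 614 CPM of Acta1, the α-actin of skeletal muscle. Its sum of mature adipocyte markers was also the highest (110115 CPM, against a median of 71843 in its group), but by mean log2 CPM mouse AAV-GFP-2014 was higher (11.63 against 11.51). Mouse AAV-Notum-2041 had the highest sum of 12 brown and beige adipocyte markers (549 CPM, against 222 to 363 CPM in the AAV-GFP mice) and 47.4 CPM of Ucp1, the uncoupling protein of thermogenic fat. Mouse AAV-Notum-2032 had the lowest level of muscle markers (a sum of 58.8 CPM) and the highest of lymphoid markers, by sum and by mean log2 CPM. Its sums of mature adipocyte markers (49259 CPM) and of brown and beige markers (158 CPM) were the lowest too, but by mean log2 CPM mouse AAV-GFP-2022 was lower in the former (10.45 against 10.49) and mouse AAV-GFP-2011 in the latter (1.31 against 1.78). The part of these markers in the levels of the fatty acid oxidation genes was not tested. With the score of the lymphoid markers added as covariate, the log2 fold changes of the 9 genes ran from -0.29 for Cpt1a to 0.39 for Hadhb, and 0 of 9 had an unadjusted edgeR p under 0.05. With the library size set by the mature adipocyte markers, the coefficient of variation over the 12 mice went from 25.7 to 14.7% for Acadm but from 21.2 to 48.2% for Cpt1a. It also fell for Cpt2, Acadvl, Acadl, Hadhb and Etfdh, and rose for Cpt1b, Slc25a20 (22.2 to 26.0%) and Hadha (21.5 to 23.1%). Mouse AAV-GFP-2011 was then the lowest for Slc25a20, Cpt2, Acadvl, Acadl, Hadha, Hadhb and Etfdh. The highest was mouse AAV-GFP-2022 for Slc25a20, Cpt2, Acadvl, Acadl and Etfdh, and mouse AAV-Notum-2041 for Acadm, Hadha and Hadhb. The log2 fold changes of Acadm and Cpt1a then turned to 0.06 and 0.03, while the median over all genes moved from 0.01 to 0.11, and 0 of 9 passed the threshold.

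**Figure D3:**
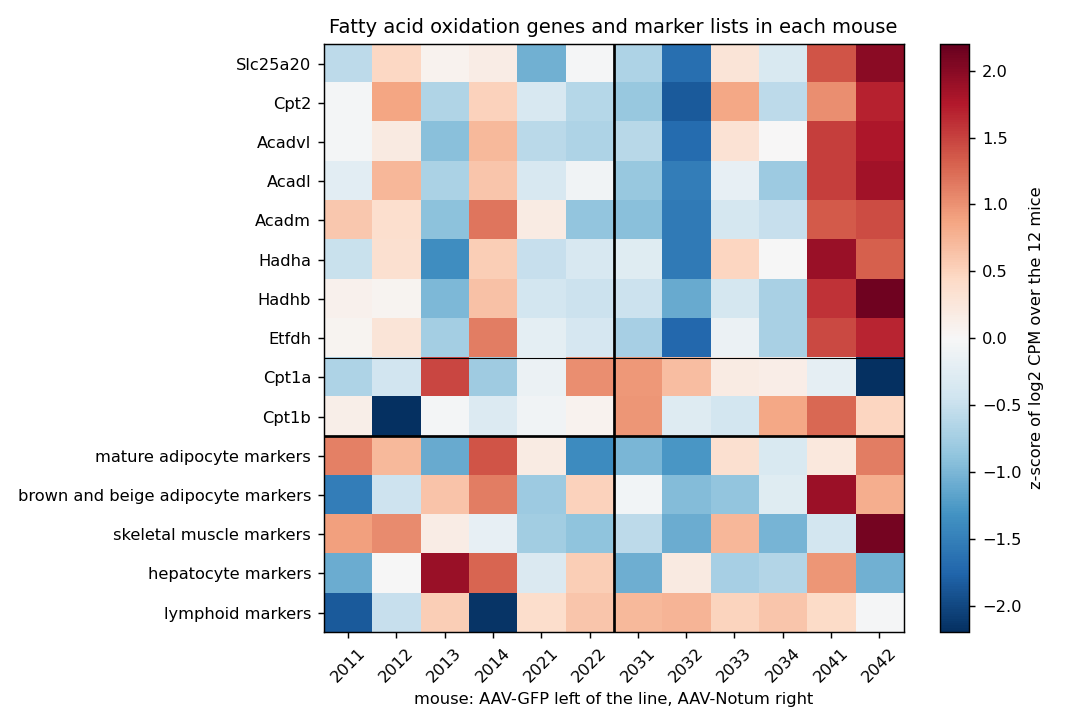
Level of each of the 10 genes (upper rows) and mean level of marker lists of 5 cell types (lower rows) in each mouse, as the z-score of log2 CPM over the 12 mice. In the upper 8 rows mice AAV-Notum-2041 and AAV-Notum-2042 are high and mouse AAV-Notum-2032 is low, and the row of Cpt1a runs the other way, with its lowest value in mouse AAV-Notum-2042.

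Of the 4 relations examined, that between Hadha and Hadhb held, and the 3 with Cpt1b did not. Hadha and Hadhb had a Pearson r of 0.871 over the 12 mice (permutation p = 0.00022, adjusted p = 0.00088) and a Spearman rho of 0.797 (permutation p = 0.0027, adjusted p = 0.0108). The r was 0.746 without mice AAV-Notum-2041 and AAV-Notum-2042, 0.887 within the AAV-GFP mice (exact permutation p = 0.0278) and 0.874 within the AAV-Notum mice (exact permutation p = 0.025). Its r was below the median of 0.892 over the 28 pairs of the 8 genes, so the relation is not particular to this pair. Cpt1b had an r of -0.320 (permutation p = 0.332, adjusted p = 0.443) and a rho of -0.203 (permutation p = 0.527, adjusted p = 0.702) with the skeletal muscle markers. Its r was 0.352 (permutation p = 0.256, adjusted p = 0.443) and its rho 0.378 (permutation p = 0.230, adjusted p = 0.461) with the brown and beige markers. With Cpt1a, its r was 0.0708 (permutation p = 0.772, adjusted p = 0.772) and its rho 0.0490 (permutation p = 0.878, adjusted p = 0.878). Without the 2 mice farthest from the median of the muscle markers, the brown and beige markers or Cpt1a, the r of Cpt1b with them was -0.285, 0.240 and 0.307. Within the AAV-GFP mice the r of Cpt1b was -0.563 with the muscle markers, 0.0941 with the brown and beige markers and 0.302 with Cpt1a, and within the AAV-Notum mice it was -0.185, 0.763 and -0.0807. The value of 0.763 had an exact permutation p of 0.0417 that was not adjusted. Cpt1b had at most 14 reads per mouse, which limits every relation of it.

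Outside all lists, the tested genes whose log2 CPM over the 12 mice followed the mean z-score of the 10 genes most closely were 4931406C07Rik (r = 0.980), Cops3 (r = 0.965), which encodes a subunit of the COP9 signalosome, Aifm1 (r = 0.951), a flavoprotein of the mitochondrial intermembrane space, Chchd3 (r = 0.949), a component of the complex that shapes cristae, and Uqcrc2 (r = 0.948), a core subunit of respiratory complex III. For Cpt1b alone they were Insl6 (r = 0.909), Ccne1 (r = 0.880), 6820431F20Rik (r = 0.876), 1810062O18Rik (r = 0.841) and Mindy2 (r = 0.816), from counts too sparse to read more from them. These genes are the highest of 15585, so their r values are a description.

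The rest of the pathway was looked at in lists written with earlier results of these data known. Of 22 other mitochondrial beta-oxidation genes, all tested, 5 had a log2 fold change above 0 and 17 below 0, with a median of -0.04, and 0 passed the threshold or an unadjusted p under 0.05, which became 1 unadjusted without AAV-GFP-2021 (Slc22a5) and 2 without AAV-Notum-2042 (Slc22a5 and Acad11). Slc22a5, the carnitine transporter of the plasma membrane, had the smallest edgeR p of the list (32.2 ± 4.38 CPM in AAV-GFP and 27.0 ± 4.37 CPM in AAV-Notum mice, log2 fold change -0.25, exact permutation p = 0.0671, edgeR adjusted p = 0.362). Acad11, an acyl-CoA dehydrogenase, had a log2 fold change of -0.40 (edgeR adjusted p = 0.475), which was -0.61 without mouse AAV-Notum-2042 and -0.23 without mouse AAV-GFP-2012. Acot13, a thioesterase, had 0.12 (edgeR adjusted p = 0.651), and Acacb, which makes the malonyl-CoA that inhibits carnitine palmitoyltransferase 1, had 0.15 (edgeR adjusted p = 0.792).

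Of 12 peroxisomal beta-oxidation genes, 3 had a log2 fold change above 0 and 9 below 0, with a median of -0.15, and 0 passed the threshold. Unadjusted, 1 gene was higher and 1 lower, against 4.64% and 9.54% of all genes. Pex11a, a factor in peroxisome division, had a log2 fold change of 0.12 (edgeR adjusted p = 0.701), and of -0.01 without mouse AAV-Notum-2042. Acaa1b, a thiolase, had -0.97 (exact permutation p = 0.130, edgeR adjusted p = 0.336), which became -0.49 without mouse AAV-GFP-2013. It was not past an unadjusted edgeR p of 0.05 without any 1 of AAV-GFP-2013, AAV-GFP-2014, AAV-Notum-2031, AAV-Notum-2032, AAV-Notum-2033 and AAV-Notum-2034, while the count of lower genes was 2 without AAV-GFP-2022 or AAV-Notum-2042. Its highest value, 60.4 CPM against an AAV-GFP median of 16.2 CPM, was in mouse AAV-GFP-2013, the mouse with the highest hepatocyte markers, and the part of hepatocyte RNA in it was not tested.

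Of 19 regulators of fatty acid oxidation, 18 were tested, with 8 above 0, 10 below 0 and a median log2 fold change of -0.07, and 0 passed the threshold. Unadjusted, 2 were higher and 0 lower, against 4.64% and 9.54% of all genes. Esrra, which encodes the nuclear receptor ERRα, had 33.8, 37.7 and 42.6 CPM (lowest, median, highest) in AAV-GFP and 40.5, 45.1 and 54.1 CPM in AAV-Notum mice. Every AAV-Notum value exceeded the mean of AAV-GFP, 3 of the 6 exceeded every AAV-GFP value, and the log2 fold change was 0.28 (standard error 0.09, exact permutation p = 0.00866, edgeR adjusted p = 0.208). Ppargc1b, the coactivator PGC-1β, had a log2 fold change of 0.58 (standard error 0.25, exact permutation p = 0.0541, edgeR adjusted p = 0.328), again with 6 of 6 AAV-Notum values over the mean of AAV-GFP. The count of 2 regulators higher at an unadjusted p became 4 without mouse AAV-GFP-2022 and 1 without mouse AAV-GFP-2011, AAV-GFP-2012 or AAV-GFP-2014 or mouse AAV-Notum-2041 or AAV-Notum-2042. Ppargc1a, the coactivator PGC-1α, had 0.10 (edgeR adjusted p = 0.837), Ppara -0.05 (edgeR adjusted p = 0.949), Pparg -0.24 (edgeR adjusted p = 0.601), Ppard -0.14 (edgeR adjusted p = 0.382) and Lpin1, a phosphatidate phosphatase that also acts as a coactivator, -0.38 (edgeR adjusted p = 0.428). With single mice left out, the sign of Ppargc1a turned (-0.13 without mouse AAV-Notum-2042), and Ppara ran from -0.31 to 0.10.

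Of 13 genes listed as PPAR targets in fasting, 9 were tested, with 3 above 0, 6 below 0 and a median log2 fold change of -0.52. None passed the threshold, and 4 were lower at an unadjusted p under 0.05, against 9.54% of all genes. Txnip, which restrains glucose uptake and binds thioredoxin, had 1597, 2118 and 3108 CPM (lowest, median, highest) in AAV-GFP and 1105, 1181 and 1343 CPM in AAV-Notum mice. Its groups did not overlap, as was so for 0.693% of all genes in this direction, and its log2 fold change was -0.89 (standard error 0.18, exact permutation p = 0.00216, edgeR adjusted p = 0.102). Without mouse AAV-GFP-2022, Txnip had an edgeR adjusted p of 0.0328 and 2 genes of the list passed the threshold, as did 158 of all genes. By DESeq2 with all mice Txnip had an adjusted p of 1.68e-04. Without any other single mouse, its edgeR adjusted p ran from 0.0525 to 0.255. The edgeR adjusted p was 0.0497 with the muscle score as covariate, 0.173 with adipocyte-marker scaling, 0.273 with the RNA integrity number and 0.306 with the lymphoid score. Angptl4, an inhibitor of lipoprotein lipase, had a log2 fold change of -0.52 (exact permutation p = 0.0390, edgeR adjusted p = 0.261) and Pdk4, the kinase that turns off pyruvate dehydrogenase in fasting, -0.55 (exact permutation p = 0.0390, edgeR adjusted p = 0.312). The uncoupling proteins Ucp3 and Ucp2 had 0.37 and 0.32 (edgeR adjusted p = 0.493 and 0.569).

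**Figure D4:**
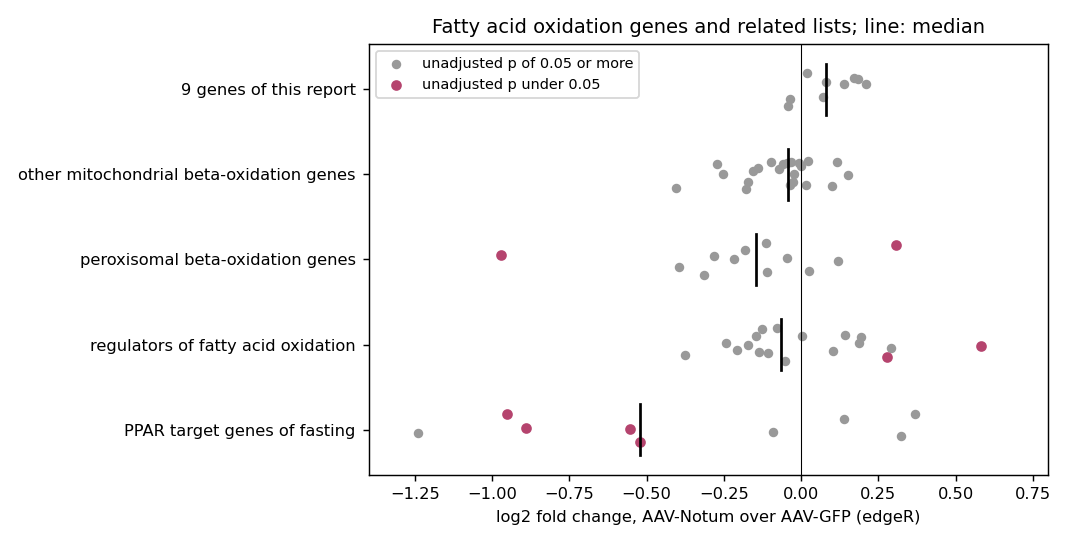
Log2 fold change (AAV-Notum over AAV-GFP) of each gene tested, 1 row for the 9 fatty acid oxidation genes and 1 for each of the 4 related lists, with a black line at the median of the list and coloured points for genes with an unadjusted edgeR p under 0.05. The 9 genes lie between -0.04 and 0.21 with no coloured point, while in the last list Txnip lies at -0.89, Pdk4 at -0.55 and Angptl4 at -0.52.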

How the data were processed

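The iWAT RNA-seq libraries of 12 mice, 6 AAV-GFP and 6 AAV-Notum, were grouped by the sample labels. Libraries were prepared with Illumina TruSeq kits and sequenced as 50 bp single-end reads, and the authors mapped them to mm10 with STAR 2.3.1. The authors deposited raw counts of reads per gene and a second table of log2 values, which are reads divided by a size factor plus 1. Dividing these out gave whole reads (tolerance 0.05) for 100% of the values. The counting program, the gene annotation and the strand setting are not given in the sources used here. In the second table, 6725 of the 31137 genes shared with the first had the same reads in all mice.

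Genes with few raw counts were removed by filterByExpr (at least 10 counts in a group's worth of mice and 15 in all), and after TMM normalization the counts were tested with glmQLFit and glmQLFTest of edgeR 4.0.16 in R 4.3.3, two-sided, with Benjamini-Hochberg adjustment over 15585 genes and a threshold of 0.05. Levels are CPM, log2 CPM carry a prior count of 2, and standard errors derive from the F statistic. Exact permutation tests used all 924 assignments of the mice, and correlations over 12 mice 100000 permutations. The fit was tested on simulated counts. Gene positions are those of GENCODE vM21 on GRCm38, and promoters are placed by RefSeq starts on GRCm38.p6. The 10 genes and all lists were chosen with earlier results of these data known. Genes named from a related list were the 2 of smallest p in each direction plus Ppara, Pparg, Ppargc1a, Esrra, Pdk4 and Angptl4. Some genes that this rule names are not reported here. The GC box and CCAAT letters were added after values were seen. Alternatives were DESeq2 1.42.0, limma-voom and limma-trend (limma 3.58.1), other normalizations and filters, covariates, the second table and each mouse left out.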

Additional observations from a re-analysis of the deposited data

Results flagged for a closer look

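Of 44 groups of 6 values examined (each gene and marker list in each group), 2 held a mouse far from the others, where chance alone would give about 1 in 20, or 2.2. The Cpt1b level in mouse AAV-GFP-2012, 0.119 CPM, was far below the other 5 AAV-GFP mice, which had 0.417 to 0.504 CPM. It rests on 2 reads, and the RNA of this mouse was isolated on another date than that of the other 11. The summed level of the skeletal muscle markers in mouse AAV-Notum-2042, 6080 CPM, was far above the other 5 AAV-Notum mice, which had 58.8 to 859 CPM. The same mouse was the highest of the 12 for Slc25a20, Cpt2, Acadvl, Acadl, Acadm, Hadhb and Etfdh, and the part of muscle RNA in those values was not tested.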

How the results depend on the processing

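Under the 14 alternatives and with each of the 12 mice left out, 0 of the 9 genes passed an adjusted or an unadjusted p of 0.05. The sign turned for Etfdh under limma-voom (-0.0077) and the authors' normalized values (-0.011), for Cpt1a with adipocyte-marker scaling (0.025), and for Acadm with that scaling (0.062), the RNA integrity number (0.020) or the lymphoid score (0.24) as covariate, and without AAV-GFP-2011 plus AAV-GFP-2014 (0.12). With single mice left out, the log2 fold changes ran from -0.11 to 0.067 (Cpt1a), 0.01 to 0.24 (Slc25a20), -0.042 to 0.19 (Cpt2), 0.07 to 0.27 (Acadvl), -0.094 to 0.18 (Acadl), -0.16 to 0.059 (Acadm), 0.10 to 0.31 (Hadha), 0.02 to 0.27 (Hadhb) and -0.10 to 0.11 (Etfdh), their median from 0.01 without mouse AAV-Notum-2042 to 0.19 without mouse AAV-Notum-2032, and the Cpt1b difference from 0.26 to 0.57. Tested by DESeq2 or with a filter of 1 count, Cpt1b had 0.55 and 0.54 (adjusted p = 0.450 and 0.531). Over all genes, 436 passed by DESeq2 and 75 with the muscle score as covariate, against 8, and 1 to 158 with single mice left out (158 without mouse AAV-GFP-2022). Of the PPAR targets, 2 passed by DESeq2, 1 with the muscle score (Txnip) and 0 to 2 with single mice left out. Their unadjusted count of 4 lower was 7 by DESeq2 and with a filter of 1 count, 2 with the lymphoid score, and 3 to 4 with single mice left out. For the other mitochondrial genes, 1 was lower by DESeq2, limma-voom, RLE or upper-quartile factors and the authors' values, 2 with the muscle score, and 0 to 2 with single mice left out. For the peroxisomal genes, 0 were higher with adipocyte scaling, the lymphoid score or without those AAV-GFP mice, 0 were lower by limma-voom, with the RNA integrity number, the lymphoid score, the authors' values or without those AAV-GFP mice, 2 were lower with the muscle score, and 0 to 2 were lower with single mice left out. For the regulators, 0 were higher with adipocyte scaling, 1 with the RNA integrity number, the lymphoid score or without those AAV-GFP mice, 1 was lower with the lymphoid or muscle score, and 1 to 4 were higher and 0 to 1 lower with single mice left out. The causes were not tested. The order of levels per length depended on the length and the count table used, and Cpt1b is limited by its few reads. No paired analysis was possible because the groups share no replicate numbers.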
